A study of Homo sapiens with 4 samples.

Results

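The genes described here belong to pathways that repair or respond to DNA damage, including that left by platinum drugs. They were taken from a list of 45 excision, crosslink, recombination, end joining, mismatch and translesion genes, among 19775 genes with a probe set of their own on the arrays. Each gene was represented by the probe set annotated to it alone that had the highest mean log2 intensity over the arrays. Of the 45 genes, 41 had such a probe set and 40 reached 76.4 units, the median of all values, on at least 1 array. XRCC3, a gene of homologous recombination, lay below that level on all 4 arrays, with at most 66.1 units. The probe sets of the mismatch repair gene PMS2 are annotated to PMS2CL as well, and FANCA, FANCD2 and BRCA2 had no probe set listed for them, so the expression of these 4 genes was not analysed here.

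Total RNA of 4 established human germ cell tumour lines was hybridized to 1 array per line. As labelled, TCam-2 derives from a seminoma, NT2D1 from a teratoma, GCT27 from an embryonal carcinoma and GCT44 from a yolk sac tumour. All 4 lines carried no labelled treatment and were grown with serum and antibiotics, TCam-2 in RPMI-1640 and the other 3 lines in DMEM, and NT2D1 came from a lung metastasis while the others came from the testis. By its title the study was after genes silenced in the lines that are not seminoma.

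Cisplatin and its relatives bind purines and join bases within a strand or across both strands. Nucleotide excision repair cuts out a short stretch that holds a lesion within a strand. The Fanconi pathway unhooks links between the strands and hands the resulting break to homologous recombination, while translesion polymerases copy past the damaged base. Testicular germ cell tumours are known for their sensitivity to cisplatin, and reduced nucleotide excision repair has been described in some testis tumour lines. Levels of mRNA say nothing about the activity of these proteins.

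Values are linear intensities in arbitrary units, and log2 differences were taken after raising values below 76.4 units to that floor. Replicates are lacking in every line, so differences carry no replicate error, no test was made, and precision is limited by the number of arrays. The medians of the 4 arrays lay between 73.6 and 79.3 units. The ratio of 3' to 5' signal for ACTB was 4.21 in GCT44 and 2.49 to 2.97 in the other lines, while that for GAPDH was 0.898 to 1.09 in all lines. Hybridization controls added to every array differed from their mean over the arrays by 0.28 in GCT44, -0.26 in GCT27 and -0.01 in both TCam-2 and NT2D1, on the log2 scale. The part of these array differences in the results was not tested, and values scaled to the controls are given beside some results and for all pairs of lines together. The arrays were scaled to a common mean, so fewer cells with a transcript and less of it per cell cannot be told apart, nor can a change of total RNA per cell be seen. The 5 seminoma markers summed to 37715 units in TCam-2 and at most 3967 elsewhere, although KIT among them was lowest in TCam-2, and the 5 yolk sac markers to 40862 units in GCT44 and at most 535 elsewhere. SOX2 and NANOG, genes of embryonal carcinoma, had 20575 and 13322 units in the teratoma-labelled NT2D1, and both lay below the floor in GCT44. LIN28A and DNMT3B of the same list did not, with 17340 and 2377 units in GCT44, and NANOG had 22390 units in TCam-2. The neural markers of teratoma, led by TUBB3, summed to 17844 units in NT2D1, 16994 in GCT27, 11230 in GCT44 and 4494 in TCam-2. Of the 3 leukocyte markers measured, PTPRC and CD14 lay below the floor on all 4 arrays and CD3E above it in GCT44 alone, with sums of 87.1 to 118 units. The 4 fibroblast markers summed to 9513 units in TCam-2, led by COL1A2, and to 1998 to 3827 units elsewhere, and their part in the results was not tested.

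The promoters of the genes on which the results turn are shown first, because the study set expression against DNA methylation, which in mammals falls on CpG dinucleotides. Methylation itself was not analysed here. Each sequence runs from 250 bases before to 50 bases after the gene start in RefSeq (build GRCh38.p14), 5′ to 3′ along the strand of the gene, with every CpG in capitals. DDB2 and ERCC6 were the only genes set apart by at least 2-fold in any line, and REV3L and POLH are the measured translesion genes.
DDB2, chr11:47214204-47214503, plus strand: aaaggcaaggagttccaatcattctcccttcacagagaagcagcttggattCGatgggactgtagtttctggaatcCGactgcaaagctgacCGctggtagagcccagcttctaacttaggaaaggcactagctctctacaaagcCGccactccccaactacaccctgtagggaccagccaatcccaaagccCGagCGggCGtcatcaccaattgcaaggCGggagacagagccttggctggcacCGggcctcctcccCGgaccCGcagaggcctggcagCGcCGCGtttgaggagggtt
ERCC6, chr10:49539072-49539371, minus strand: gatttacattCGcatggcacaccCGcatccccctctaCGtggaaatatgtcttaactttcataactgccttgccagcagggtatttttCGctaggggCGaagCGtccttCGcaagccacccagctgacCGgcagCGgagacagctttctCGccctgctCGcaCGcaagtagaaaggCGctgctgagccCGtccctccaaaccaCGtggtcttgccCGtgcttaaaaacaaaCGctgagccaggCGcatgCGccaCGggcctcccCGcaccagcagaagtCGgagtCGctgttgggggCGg
REV3L, chr6:111483169-111483468, minus strand: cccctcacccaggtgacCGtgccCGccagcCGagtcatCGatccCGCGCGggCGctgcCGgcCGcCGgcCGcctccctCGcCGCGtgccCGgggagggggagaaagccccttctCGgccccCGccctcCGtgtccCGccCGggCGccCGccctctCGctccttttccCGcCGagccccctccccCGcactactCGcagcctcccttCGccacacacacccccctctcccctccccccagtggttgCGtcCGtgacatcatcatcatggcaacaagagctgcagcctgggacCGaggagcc
POLH, chr6:43575935-43576234, plus strand: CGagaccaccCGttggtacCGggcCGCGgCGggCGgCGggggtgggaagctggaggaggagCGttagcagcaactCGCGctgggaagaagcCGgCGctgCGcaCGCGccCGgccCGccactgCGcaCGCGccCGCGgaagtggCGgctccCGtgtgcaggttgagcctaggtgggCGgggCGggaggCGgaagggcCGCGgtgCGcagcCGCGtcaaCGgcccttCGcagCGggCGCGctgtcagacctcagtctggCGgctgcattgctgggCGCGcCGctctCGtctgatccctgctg

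The promoter of DDB2 held 14 CpG dinucleotides, that of ERCC6 24, that of REV3L 32 and that of POLH 43. Of the 45 genes 42 had a promoter in the RefSeq table, and their median was 28.5 CpG against 25 for the 11927 compared genes with an entry. The ratio of observed to expected CpG was above 0.6 in 41 of the 42 promoters (97.6%), against 74.6% of promoters of the compared genes. The exception was DDB2 at 0.551, which was also the gene with the widest spread over the lines. The letters TTTCCCGC or TTTGGCGC, forms of the site bound by the E2F factors of the cell cycle, were found on either strand in 7 promoters (16.7%), those of FANCD2, LIG1, MSH6, REV3L, XPC, XRCC2 and XRCC6, against 3.21% of the compared genes. The GC box GGGCGG was present on either strand in 31 promoters (73.8%, against 64.9%) and CCAAT in 20 (47.6%, against 36%). These matches are descriptions of letters in a short window and not of binding, and these motifs were chosen with the results known.

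None of the 40 repair genes was set apart in any line by a margin of 4-fold or more to its nearest neighbour, whereas 7.1% of 14926 compared genes did. At 2-fold, 2 of 40 did so, DDB2 higher in GCT27 and ERCC6 lower in GCT44, against a background of 24.3%. The highest and the lowest line were at least 2-fold apart for 17 of the 40 genes (42.5%), against 54.4% of all compared genes, and at least 4-fold apart for DDB2 alone, against 20.5%. The median spread between highest and lowest line was 0.86 on the log2 scale for the repair genes and 1.09 for all compared genes. That order depended on the handling of dim genes, since it turned with no filter (0.84 for 41 repair genes, 0.785 for all 19775 genes) and with the floor at the 70th percentile (0.79 and 0.72). The floor narrows the spread of dim genes by construction, and among genes reaching 252 units, the 70th percentile, the medians were 0.84 for 39 repair genes and 1.32 for 10789 genes.

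**Figure D1:**
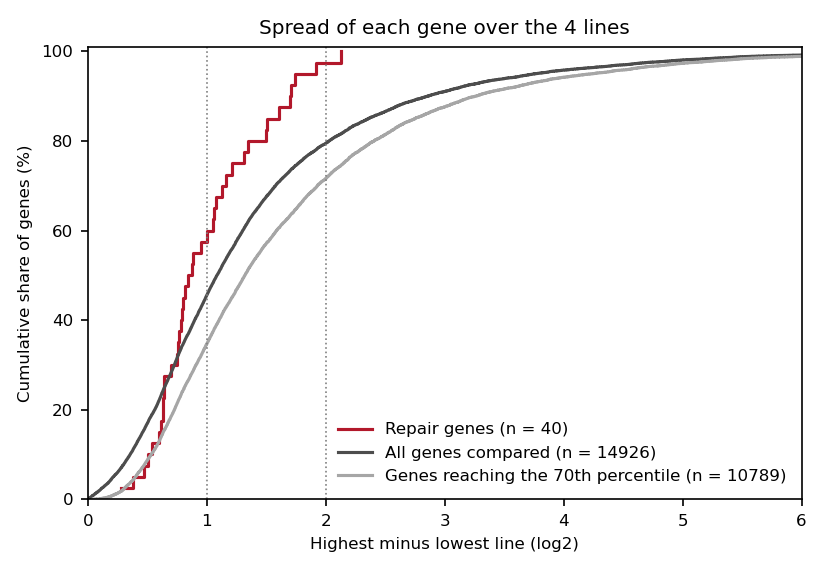
Cumulative share of genes (vertical axis, in percent) by the difference between the highest and the lowest of the 4 lines (horizontal axis, log2), for 40 repair genes, all 14926 compared genes and the 10789 genes that reach the 70th percentile of intensity. Dotted lines mark 2-fold and 4-fold, and the curve of the repair genes ends at 2.13, the spread of DDB2.

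The genes with the smallest spread were PRKDC, the catalytic subunit of the DNA-dependent protein kinase (1.21-fold between highest and lowest line), the Fanconi core gene FANCE (1.30-fold) and MSH6, which recognises mismatches (1.38-fold). Second probe sets spread more, by 0.67 on the log2 scale for PRKDC and 0.90 for MSH6, and FANCE had no other probe set. The genes with the widest spread were DDB2 (4.38-fold), REV3L (3.78-fold), POLH (3.35-fold), XRCC2 (3.26-fold) and FANCI (3.25-fold). Just inside the 2-fold spread were ATM, LIG4 and LIG1 (the last at 2.08-fold), and just outside it was DDB1 (1.93-fold). Between lines, TCam-2 was the lowest of the 4 for 15 of 40 genes (37.5%) and the highest for 6 (15%). Among genes above the floor on all 4 arrays, which leaves no ties, it was lowest for 15 of 39 repair genes (38.5%) and for 27.1% of 9894 genes, and highest for 15.4% and 24.8%. Of the 40 genes, NT2D1 was highest for 13 (32.5%, against 23.6% of all compared genes), GCT27 for 11 (27.5%, against 24.8%) and GCT44 for 10 (25%, against 26.9%). The median difference of a line from the mean of the other 3 was -0.11 in TCam-2, 0.10 in GCT44, 0.00 in GCT27 and 0.11 in NT2D1, with medians over all compared genes between -0.06 and -0.02.

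**Figure D2:**
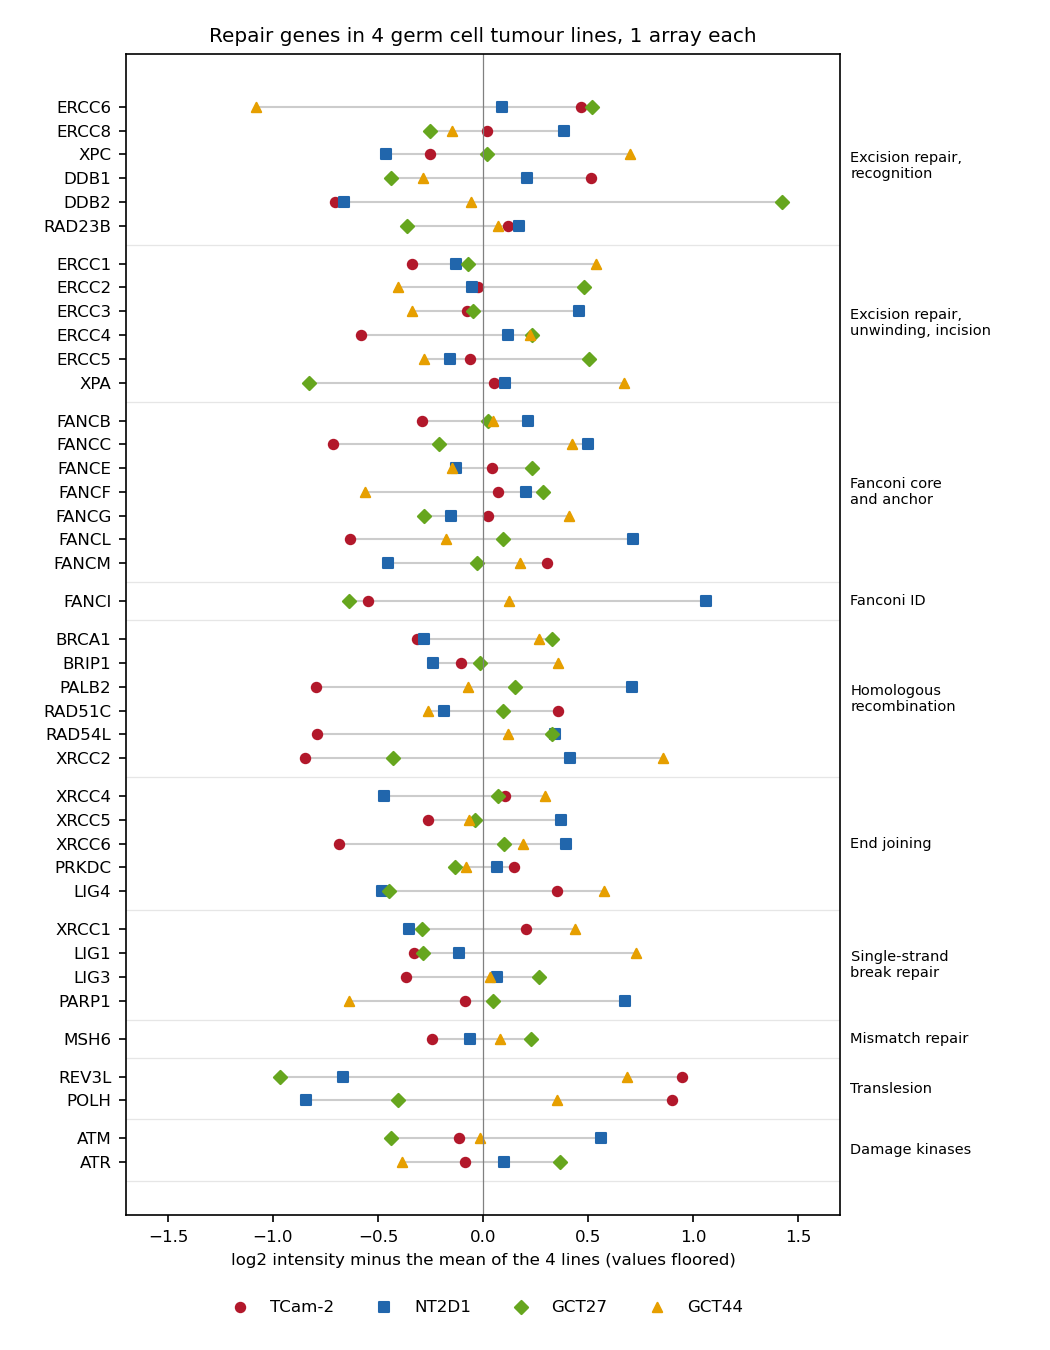
Each row is a repair gene and each point a line, plotted as log2 intensity minus the mean of the 4 lines, with 1 array per line and no error bar. The genes are grouped by pathway, DDB2 stands out to the right in GCT27 and ERCC6 to the left in GCT44, and TCam-2 lies at the left end for most homologous recombination genes.

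Probe sets of the same gene give a view of part of the measurement error here. They share the RNA and the array of a line, so error between arrays or cultures is not seen in them. For the 22 repair genes with over 1 probe set above the floor on all 4 arrays, the 2 brightest disagreed by a median of 0.25 (log2) on the difference of a line from the mean of the others, while that difference itself had a median size of 0.35. The brightest probe set shared its highest line with 18 of 33 other probe sets and its lowest line with 17. The order of lines that differ by less than 2-fold is therefore not settled for most genes, and 15 of the 40 genes had no other probe set.

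Nucleotide excision repair begins with recognition, by XPC and RAD23B across the genome, by the DDB1 and DDB2 complex, which is best known for ultraviolet lesions, and by ERCC6 and ERCC8 at stalled RNA polymerase. DDB2, a target gene of p53, had 3681 units in GCT27, against 840 in TCam-2, 867 in NT2D1 and 1317 in GCT44. It was 2.79-fold above the next line and 4.38-fold and 4.25-fold above TCam-2 and NT2D1. GCT27 stood alone above the other 3 lines, and DDB2 had no other probe set. Of all compared genes, 3.16% were higher in GCT27 by 2-fold or more beyond the nearest line. With arrays scaled to the hybridization controls, the margin of DDB2 was 2.03 on the log2 scale, past 4-fold. DDB1, its partner, had 2413 units in GCT27, against 4668 in TCam-2, 3786 in NT2D1 and 2677 in GCT44, so the line highest for DDB2 was lowest for DDB1.

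ERCC6, which encodes the CSB protein of transcription-coupled repair, had 69.4 units in GCT44, below the floor, against 224 in TCam-2, 172 in NT2D1 and 232 in GCT27. It was at least 2.26-fold lower in GCT44 than in the nearest line, where 4.45% of compared genes were lower by 2-fold or more. A second probe set gave another order, with 91.3 units in GCT44, 156 in TCam-2, 70.4 in NT2D1 and 188 in GCT27. With the median over the probe sets the margin was -0.47, short of 2-fold. ERCC8, its partner CSA, had 304 units in TCam-2, 271 in GCT44, 252 in GCT27 and 393 in NT2D1.

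XPC, the first sensor of distorted DNA, had 2013 units in GCT44, against 1041 in TCam-2, 900.3 in NT2D1 and 1256 in GCT27. The value in GCT44 was 2.24 times that in NT2D1, a difference that was under 2-fold when scaled to the hybridization controls. Its partner RAD23B had 13914 units in TCam-2, 13474 in GCT44, 9981 in GCT27 and 14460 in NT2D1, and 3 probe sets above the floor on all arrays included 2 that were lowest in GCT27. Recognition genes had no common direction, with medians of 0.09, 0.18, -0.16 and -0.14 in TCam-2, NT2D1, GCT27 and GCT44, and when scaled to the hybridization controls that of GCT27 was 0.19, against 0.30 for all compared genes.

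XPA verifies the lesion, and low XPA protein has been described in some testis tumour lines. It had 178 units in GCT27, against 328 in TCam-2, 340 in NT2D1 and 504 in GCT44. GCT27 was the lowest, 1.84-fold below the next line and 2.82-fold below GCT44, a difference that was under 2-fold when scaled to the hybridization controls, and the single probe set allows no second reading. ERCC1 and ERCC4 encode the nuclease that cuts on the 5' side of the lesion and also unhooks links between strands. ERCC1 had 568 units in TCam-2, 1041 in GCT44, 684 in GCT27 and 658 in NT2D1, 1.52-fold above the next line in GCT44. A second probe set of ERCC1 was also highest in GCT44, at 848 units against 575, 477 and 686 in TCam-2, NT2D1 and GCT27, while the dimmest was highest in TCam-2.

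ERCC4 had 229 units in TCam-2, against 400 in GCT44, 403 in GCT27 and 373 in NT2D1. TCam-2 was 1.63-fold below the next line, and a dimmer probe set lay below the floor in both TCam-2 and NT2D1. ERCC2, a helicase of the TFIIH complex, had 245 units in TCam-2, 188 in GCT44, 347 in GCT27 and 240 in NT2D1. Its second probe set was highest in TCam-2 instead, at 229 units. The other TFIIH helicase ERCC3 and the 3'-side nuclease ERCC5 stayed within 1.74-fold and 1.72-fold over the lines. Over the 12 excision repair genes the medians were -0.06 in TCam-2, -0.14 in GCT44, -0.02 in GCT27 and 0.13 in NT2D1, and 4 of the genes had a spread of at least 2-fold.

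The Fanconi core complex attaches ubiquitin to the FANCD2 and FANCI pair at a stalled fork, with FANCL as the ligase. FANCL had 3201 units in TCam-2, 4406 in GCT44, 5310 in GCT27 and 8146 in NT2D1. FANCC, a structural subunit, had 193 units in TCam-2, 425 in GCT44, 274 in GCT27 and 447 in NT2D1. Both were lowest in TCam-2 and highest in NT2D1, which differed 2.54-fold for FANCL and 2.32-fold for FANCC. FANCL had no other probe set. The dimmer probe sets of FANCC did not show TCam-2 as the lowest line. The brighter of them, with at most 99.5 units, lay below the floor in GCT27 alone, and the dimmest lay above it in GCT27 alone, at 118 units.

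FANCI, the measured partner of that pair, had 2603 units in TCam-2, 4135 in GCT44, 2441 in GCT27 and 7940 in NT2D1. NT2D1 stood 1.92-fold above the next line and 3.25-fold above GCT27. A second probe set gave the same order of lines, with 1126 units in TCam-2, 1265 in GCT44, 757 in GCT27 and 2185 in NT2D1, whereas the dimmest one was highest in GCT44. The remaining core genes FANCB, FANCE, FANCF and FANCG and the anchor FANCM, a translocase that recruits the complex, had spreads between 1.30-fold and 1.80-fold. FANCM had 388 units in TCam-2, 355 in GCT44, 308 in GCT27 and 229 in NT2D1, so NT2D1 was lowest for the anchor and highest for the ligase. Of the 8 compared genes of the core and the FANCI pair, 3 had a spread of at least 2-fold, and the median differences were -0.18, 0.28, 0.00 and 0.11 in TCam-2, NT2D1, GCT27 and GCT44.

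Homologous recombination repairs the break with a sister copy, and among the groups of at least 2 genes this one had the lowest median in the seminoma line. The 6 compared genes had a median of -0.74 in TCam-2, against 0.26 in GCT44, 0.16 in GCT27 and 0.10 in NT2D1, and 5 of the 6 lay below the mean of the other lines in TCam-2, as did 55.4% of all compared genes. When scaled to the hybridization controls the median in GCT44 was -0.12, against -0.29 for all compared genes. PALB2, which joins BRCA1 to BRCA2, had 845 units in TCam-2, 1397 in GCT44, 1629 in GCT27 and 2400 in NT2D1. RAD54L, a motor protein that acts on DNA during strand exchange, had 512 units in TCam-2, 961 in GCT44, 1111 in GCT27 and 1120 in NT2D1. XRCC2, which also acts in this pathway, had 147 units in TCam-2, 478 in GCT44, 196 in GCT27 and 352 in NT2D1. TCam-2 was the lowest line for all 3, by 1.65-fold, 1.88-fold and 1.34-fold beyond the next line, so none passed 2-fold against the nearest line, where 3.13% of compared genes did. None of the 3 had another probe set.

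BRCA1, which steers breaks into this pathway, had 878 units in TCam-2, 1312 in GCT44, 1370 in GCT27 and 899 in NT2D1. A second probe set of BRCA1 was lowest in NT2D1 instead, at 197 units against 246 in TCam-2. The helicase BRIP1 had 1213 units in TCam-2, 1675 in GCT44, 1292 in GCT27 and 1108 in NT2D1. Its second probe set was highest in TCam-2 instead, at 407 units against 340 in GCT44, 312 in GCT27 and 223 in NT2D1. On the probe sets used, RAD51C was the exception. It was highest in TCam-2 with 1750 units, against 1142 in GCT44, 1460 in GCT27 and 1202 in NT2D1, but its second probe set was highest in GCT44 instead. Of 15 proliferation genes, 13 lay below the mean of the other lines in TCam-2, with a median of -0.43, against 55.4% of all compared genes. MKI67 was an exception, highest in TCam-2 with 1733 units. Its second probe set was lowest there, at 482 units, and its dimmer ones were highest there. The proliferation list had a median of 0.46 in NT2D1 and 0.17 in GCT44, where the recombination genes had 0.10 and 0.26. The part of proliferation in the result was not tested. The median of the recombination genes in TCam-2 was -0.73 when scaled to the hybridization controls, -0.66 with arrays centred and -0.74 with quantile normalization.

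**Figure D3:**
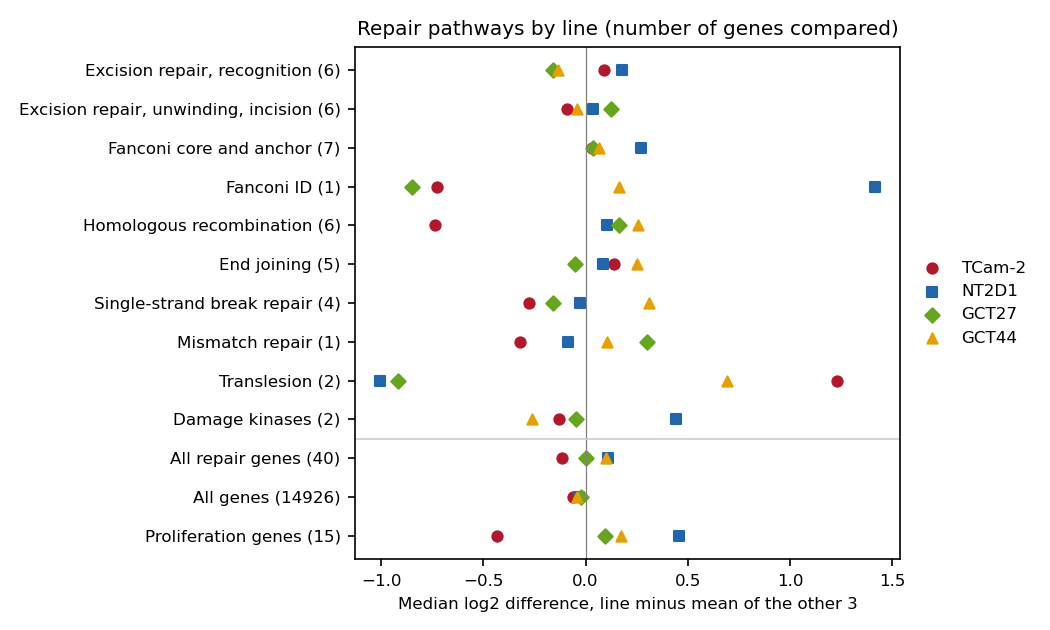
Median log2 difference between a line and the mean of the other 3 (horizontal axis) for each repair pathway, with the number of genes compared in brackets, above all repair genes, all compared genes and 15 proliferation genes. Homologous recombination is lowest in TCam-2 at -0.74, and the 2 translesion genes are highest in TCam-2 at 1.23 and lowest in NT2D1 at -1.01. Values scaled to the hybridization controls are not plotted. With that scaling all compared genes shift to 0.30 in GCT27 and -0.29 in GCT44, which turns the sign of several pathway medians in those lines.

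End joining rejoins broken ends without a copy. The Ku subunits hold the ends, and XRCC6, which encodes Ku70, had 6626 units in TCam-2, 12150 in GCT44, 11424 in GCT27 and 14007 in NT2D1. XRCC5, which encodes Ku80, had 10615 units in TCam-2, 12155 in GCT44, 12420 in GCT27 and 16482 in NT2D1. Both Ku genes were lowest in TCam-2 and highest in NT2D1, by 2.11-fold for XRCC6, although a dim probe set of XRCC6, at 111 to 132 units, did not show it. The 2 other probe sets of XRCC5 had the same lowest and highest line as the first.

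LIG4, the ligase of the pathway, reached 1040 units in TCam-2 and 1217 in GCT44, against 584 in NT2D1 and 597 in GCT27. A second probe set reached 344 units in TCam-2 and 458 in GCT44, against 143 in NT2D1 and 189 in GCT27. In both, TCam-2 and GCT44 lay above NT2D1 and GCT27. XRCC4, the partner of LIG4, did not share the pattern, with 644 units in TCam-2, 733 in GCT44, 431 in NT2D1 and 629 in GCT27, while NT2D1 was lowest in its 3 probe sets above the floor. PRKDC had 10449 units in TCam-2, 8933 in GCT44, 8611 in GCT27 and 9872 in NT2D1.

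The 2 translesion genes had a median spread of 1.83 on the log2 scale, wider than any other group of at least 2 genes. REV3L, the catalytic subunit of polymerase zeta, which extends past platinum adducts, reached 2300.0 units in TCam-2 and 1915 in GCT44, against 752 in NT2D1 and 609 in GCT27. Its second probe set reached 266 units in TCam-2 and 464 in GCT44, against 106 in NT2D1 and 146 in GCT27. TCam-2 and GCT44 were above NT2D1 and GCT27 in both probe sets, but the first was highest in TCam-2 and the second in GCT44. On the brightest probe set TCam-2 was 3.06-fold above NT2D1 and 3.78-fold above GCT27. Of all compared genes, 13% were higher by 2-fold or more in TCam-2 than in NT2D1, and 11.7% than in GCT27.

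POLH encodes polymerase eta, which inserts bases opposite cisplatin links within a strand. It reached 513 units in TCam-2 and 352 in GCT44, against 153 in NT2D1 and 208 in GCT27. A second probe set reached 220.0 units in TCam-2 and 218 in GCT44, against 87.6 in NT2D1 and 94.2 in GCT27. POLH shared with REV3L the split of TCam-2 and GCT44 above NT2D1 and GCT27, though not the order of the last pair, with TCam-2 3.35-fold above NT2D1 and 2.47-fold above GCT27. In 2 dimmer probe sets of POLH, above the floor on 3 arrays, NT2D1 was again lowest but GCT27 lay above GCT44, at 118 and 121 units in GCT27 and 96.4 and 105 units in GCT44. The split sets the seminoma line with the yolk sac line and not apart from all non-seminoma lines. Scaled to the hybridization controls, the median of the 2 genes was 1.24 in TCam-2, 0.31 in GCT44, -0.99 in NT2D1 and -0.56 in GCT27, with TCam-2 and GCT44 still above the others.

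**Figure D4:**
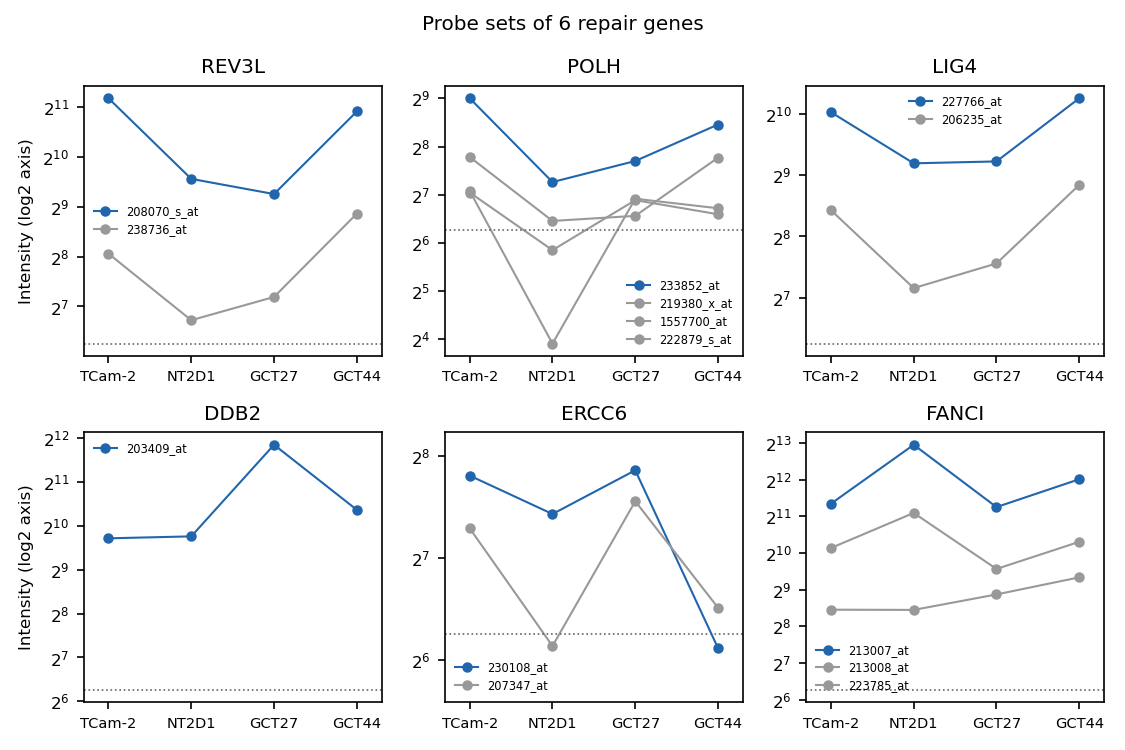
Intensity (vertical axis, log2 scale, own range per panel) in the 4 lines for the probe sets of REV3L, POLH, LIG4, DDB2, ERCC6 and FANCI that lie above the floor on at least 3 arrays. The probe set used is blue, the others are grey, lines join values of 1 probe set, and the dotted line is the floor at 76.4 units. The brightest 2 probe sets of REV3L, POLH and LIG4 are higher in TCam-2 and GCT44 than in NT2D1 and GCT27, while DDB2 has 1 probe set and those of ERCC6 disagree.

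The remaining groups were small. Among genes that mend nicks, LIG1, the ligase of replication, had 1003 units in GCT44, against 483 in TCam-2, 561 in NT2D1 and 497 in GCT27. PARP1, the sensor of strand breaks, had 7489 units in TCam-2, 5110 in GCT44, 8216 in GCT27 and 12683 in NT2D1. GCT44 was thus highest for LIG1, 1.79-fold above the next line, and lowest for PARP1, 2.48-fold below NT2D1. The 2-fold differences of LIG1 from TCam-2 and from GCT27 were under 2-fold when scaled to the hybridization controls, and that from GCT27 also with quantile normalization. The scaffold XRCC1 had 275 units in TCam-2, 322 in GCT44, 194 in GCT27 and 187 in NT2D1. LIG3, the partner of XRCC1, was lowest in TCam-2 in its 3 brightest probe sets, by 1.32-fold in the first, and lowest in GCT44 in 2 dimmer ones.

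MSH6, the only mismatch repair gene compared, had 11248 units in TCam-2, 14062 in GCT44, 15568 in GCT27 and 12733 in NT2D1. ATM, the kinase that answers double-strand breaks, had 585 units in TCam-2, 627 in GCT44, 467 in GCT27 and 935 in NT2D1. ATR, the kinase of stalled forks, had 1917 units in TCam-2, 1557 in GCT44, 2619 in GCT27 and 2179 in NT2D1. ATM was highest in NT2D1 in its 3 brightest probe sets and lowest there in the next, at 106 units, and ATR was highest in GCT27 in 2 probe sets.

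Between pairs of lines, 33 differences over the 40 repair genes reached 2-fold, against about 22610 over the 14926 compared genes, which is fewer per gene. The most frequent pair among the 33 was TCam-2 against NT2D1. In that pair 7 of 40 genes were lower in TCam-2, FANCC, FANCI, FANCL, PALB2, RAD54L, XRCC2 and XRCC6, where 13.1% of all compared genes were, and REV3L and POLH were higher. In TCam-2 against GCT27, DDB2 and RAD54L were lower (background 12.9%) and REV3L and POLH higher. In TCam-2 against GCT44, FANCC, XRCC2 and LIG1 were lower (13.3%) and ERCC6 was higher (14%). In GCT27 against GCT44, XPA, XRCC2, LIG1, LIG4 and REV3L were lower (12.4%), and ERCC6 and DDB2 were higher (14.6%). In NT2D1 against GCT44, XPC, LIG4, REV3L and POLH were lower (12.5%), and ERCC6 and PARP1 were higher (13.1%). In NT2D1 against GCT27, FANCI and ATM were higher (9.72%) and DDB2 was lower (11.1%). Pairs share lines, so these counts are not independent of each other. All 33 kept their direction under 3 other scalings. Centring and control scaling shift whole arrays by less than 2-fold, so they could not turn a 2-fold difference. Of the 33, 23 still reached 2-fold when arrays were scaled to the hybridization controls. The 10 that did not were XPA, XRCC2, LIG1 and LIG4 in GCT27 against GCT44, XPC, LIG4 and POLH in NT2D1 against GCT44, FANCC and LIG1 in TCam-2 against GCT44 and ATM in NT2D1 against GCT27.

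A wider list of 116 repair, damage signalling and platinum handling genes was examined beside these, of which 103 were compared. None was 4-fold beyond the nearest line in any line (background 7.1%), and 12 were 2-fold beyond it (background 24.3%), ATP7B, CHEK1, CHEK2, CLSPN, DCLRE1C, GSTP1, HELQ, MLH3, NBN, OGG1, PMS1 and RAD18. Over the 103 genes 69 lay below the mean of the other lines in TCam-2, with a median of -0.22 (67.0%, against 55.4% of all compared genes). The following genes were chosen for mention after their values were seen. In translesion synthesis, POLK, which encodes polymerase kappa, reached 1333 units in TCam-2 and 1061 in GCT44, against 526 in NT2D1 and 587 in GCT27, the split seen for REV3L and POLH. MAD2L2, which encodes the REV7 partner of REV3L, had the opposite split, with 876 units in TCam-2 and 916 in GCT44, against 3017 in NT2D1 and 4808 in GCT27. RAD18, the ligase that calls these polymerases to a stalled fork, had 1608 units in GCT27, against 483 in TCam-2, 749 in NT2D1 and 498 in GCT44. The 8 other translesion genes compared had a median of -0.34 in TCam-2, with 3 above and 5 below the mean of the other lines.

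NBN, a subunit of the complex that senses broken ends, had 7613 units in GCT44, against 3624 in TCam-2, 1274 in NT2D1 and 2300 in GCT27. Its 4 bright probe sets were all highest in GCT44 and lowest in NT2D1. DCLRE1C, which encodes the Artemis nuclease of end joining, had 2216 units in GCT44, against 820.0 in TCam-2, 585 in NT2D1 and 452 in GCT27, and 3 probe sets above the floor on all arrays were highest in GCT44. CHEK1, the kinase below ATR, had 3743 units in NT2D1, against 829 in TCam-2, 1449 in GCT27 and 1221 in GCT44. CHEK2, the kinase below ATM, had 2412 units in GCT27, against 526 in TCam-2, 919 in NT2D1 and 1134 in GCT44. Both kinases were lowest in TCam-2. There 11 of the 15 damage signalling genes lay below the mean of the other lines, with a median of -0.16, against 55.4% of all compared genes.

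Base excision genes outside the list were below the mean of the other lines in TCam-2 for 12 of 15, with a median of -0.38, and above it in NT2D1 for 12 of 15, with a median of 0.29. Of all compared genes 55.4% lay below in TCam-2 and 47.0% above in NT2D1. The other nucleotide excision genes had a median of -0.09 in TCam-2 and the other Fanconi genes one of -0.20. ATP7B, a copper pump that also carries platinum out of cells, had 672 units in GCT44, against 115 in TCam-2, 204 in NT2D1 and 251 in GCT27. GSTP1, a glutathione transferase, had 7304 units in GCT44, against 30382 in TCam-2, 15572 in NT2D1 and 24802 in GCT27. These genes were at least 2-fold beyond the nearest line in opposite directions in GCT44.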

How the data were processed

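Expression was measured in 4 lines on 1 Affymetrix array of 54675 probe sets each. The deposited values are linear intensities. The submitters' processing notes name RMA, which usually gives log2 values, so the scale was read from the values themselves, and each array has the same trimmed mean of 500.1. No unused sample columns were present. Probe sets were named from GEO's platform annotation: 41097 had 1 gene, 1801 several and 11777 none listed. Genes were compared where a line reached the floor of 76.4 units. A line was set apart by its margin to the nearest other line, with 4-fold as the main size and 2-fold beside it. With 1 array per line no test was made. The size rule was run on simulated data of bright genes with planted changes well beyond 4-fold. That run says nothing about margins near 2-fold or values near the floor. Every listed gene was accounted for, with all 4 values for genes set apart by 2-fold and for the brightest and dimmest of each group. Members, lists and motifs were chosen with earlier results of these data known. Alternatives covered probe set choice, filter, floor, scaling, margin and leaving out each line. Python 3.11.15, numpy 2.4.6, pandas 2.3.3 and matplotlib 3.10.9 were used.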

Additional observations from a re-analysis of the deposited data

How the results depend on the processing

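Under the alternatives 149 recomputed values stayed close to the value given, 20 moved and 2 fell short of their size threshold. The DDB2 and ERCC6 margins kept their direction except where that of ERCC6 was 0, while the small medians of NT2D1, GCT27 and GCT44 changed sign under some settings. The count of genes lower by 2-fold in a line was 0 with the median over probe sets, with a filter at the 70th percentile and with the floor raised to it, since ERCC6 was no longer called. The ERCC6 margin was -0.47 with the median over probe sets and 0 with the raised floor, and that of DDB2 ranged from 1.41 to 2.03. With the median over probe sets the NT2D1 median was -0.16, and the cause was not tested. Scaled to the hybridization controls, 1 gene was higher by 4-fold and 2 by 2-fold, and the medians were 0.35 in GCT27 and -0.28 in GCT44, where those of all genes were 0.30 and -0.29. The repair genes' median spread was 0.64 to 0.94, above that of all genes with no filter and with the raised floor and below it under the other settings. Without TCam-2, 3 genes were higher by 2-fold, against 2555 of 14505 compared genes. Without NT2D1, 3 were higher and 2 lower, and 10 had a 2-fold spread. Without GCT27, 0 were higher and 5 lower. Without GCT44, 1 was higher by 4-fold and 4 by 2-fold, and 11 had a 2-fold spread. Counts without the other lines are given with no share over all genes and are no result about the repair genes. Fewer lines leave fewer neighbours and a narrower spread by construction. A margin of 1 gave 1 higher, 1 lower and 33 pair differences. Choosing probe sets by linear mean was added after seeing the data. No paired analysis was possible because each line had 1 array.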
